A study of Homo sapiens with 4 samples.

Results

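The 9 genes described here encode the SMC5/6 complex, its recruiting factors SLF1 and SLF2, and EID3. They were listed by symbol and matched to 9 of the 58884 genes in the count tables through their Ensembl identifiers. EID3 was selected on its measured rise in the comparison of knockdown with control, so its values below are a description with no test. The other 8 genes, called partners here, were listed for their place in the complex, and their tests come from a fit over all genes.

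RNA was sequenced from HCT116, an established human colorectal carcinoma cell line, as 2 RALY knockdown libraries and 2 control libraries. RALY belongs to the hnRNP proteins, which bind RNA. Per the labels' protocols, cells were exposed for 72 h to lentivirus, with an agent spelled polyprene there, and the virus carried either a RALY hairpin or a nonsilencing one. The hairpin sequences were not used here. Other labels call the controls untreated or wild type, so what the controls received is not settled. The source names of replicate 2 in both groups read HCT-117, while the cell line field reads HCT-116 throughout. Separate cultures are not stated for the 2 libraries of a group, so p-values cover the spread between libraries alone, and that spread may be technical.

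SMC complexes are ring-shaped ATPases that encircle DNA, and SMC5/6 is the family member best known for DNA repair by recombination, for restarting stalled replication forks and for silencing DNA that is not part of a chromosome. SMC5 and SMC6 form the long arms, and a kleisin closes the ring between their heads. That kleisin is NSMCE4A in most cells, and EID3, also called NSMCE4B, is its paralog and is known mainly from testis. NSMCE1 (a RING protein) and NSMCE3 (a MAGE protein) bind the kleisin, NSMCE2 is a SUMO ligase docked on SMC5, and SLF1 and SLF2 bring the complex to damaged DNA. EID3 is also described as an inhibitor of transcription that depends on the acetyltransferase CBP, a relative of p300.

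Library totals were 16493967 and 14762755 counts for the knockdown and 13360007 and 16847520 for the controls. Levels are given as CPM, the count for every 1000000 counts of a library. The smallest level told from 0, taken as 3 counts, lay from 0.178 to 0.225 CPM and covers counting error only. RALY had 634 and 522 counts in the knockdown libraries, against 1903 and 2132 in the controls, a log2 fold change of knockdown over control of -1.84 (SE 0.127, edgeR quasi-likelihood adjusted p = 6.59e-06). Of 11 colon epithelial markers, 8 were tested and 1, CDX2, fell (12.5% of the 8 called, against 25.6% of all genes tested). VIL1 had only 11 to 14 counts in each library, and CDX1, LGR5 and ASCL2 had 0 to 2. The summed level of the 11 was 677 to 732 CPM in the knockdown and 647 to 734 CPM in the controls. HEK293T cells are often used to package lentivirus, and 3 of their markers were read. NEFH rose, with 44 and 46 counts in the knockdown and 6 and 9 in the controls. It was the only 1 called, 33.3% of the 3 against 25.6% of all genes tested. CRABP2 and PAX2 were not called (log2 fold change 0.01 and -0.10, edgeR adjusted p = 0.959 and 0.693). The summed level of the 3 was 112 to 129 CPM in the knockdown and 114 to 126 CPM in the controls. Nearly all of it was CRABP2 (mean 89.5 CPM in the knockdown and 88.8 in the controls) and PAX2 (28.4 and 30.5). The sum therefore hardly reflects NEFH, and whether packaging cells were present was not tested. NEFH averaged only 2.92 CPM in the knockdown and 0.488 CPM in the controls. NEFH reached the level of the filter on low counts in the knockdown alone. The part of NEFH and CDX2 in the results below was not tested. In bulk RNA, a change in the number of cells of a type and a change in RNA per cell cannot be told apart.

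The promoters of 3 genes are shown as background, and no count or fold change rests on them. Those of SMC6 and NSMCE1 also hold exon bases of a neighbour whose counts are given below. NSMCE4A is the gene EID3 is set against. The 3 windows are RefSeq sequences on GRCh38.p14, from 250 bases before to 50 bases after the start, all read 5′ to 3′ on the minus strand. The table held 6 of the 9 genes, the others being EID3, NSMCE2 and SLF2. Capitals mark bases in a deposited exon of GEN1 (203 bases) for SMC6 at chr2:17753761-17754060, and bases in a deposited exon of NSMCE1-DT (177 bases) for NSMCE1 at chr16:27268723-27269022. For NSMCE4A, at chr10:121975168-121975467, capitals mark CpG dinucleotides.
SMC6: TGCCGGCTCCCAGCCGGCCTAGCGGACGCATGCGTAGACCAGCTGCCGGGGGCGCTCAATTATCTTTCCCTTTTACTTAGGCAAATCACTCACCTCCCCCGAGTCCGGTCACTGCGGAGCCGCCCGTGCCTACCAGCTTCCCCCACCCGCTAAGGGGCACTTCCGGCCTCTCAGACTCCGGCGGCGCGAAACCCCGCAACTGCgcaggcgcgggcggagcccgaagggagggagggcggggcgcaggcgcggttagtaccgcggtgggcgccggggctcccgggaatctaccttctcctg
NSMCE1: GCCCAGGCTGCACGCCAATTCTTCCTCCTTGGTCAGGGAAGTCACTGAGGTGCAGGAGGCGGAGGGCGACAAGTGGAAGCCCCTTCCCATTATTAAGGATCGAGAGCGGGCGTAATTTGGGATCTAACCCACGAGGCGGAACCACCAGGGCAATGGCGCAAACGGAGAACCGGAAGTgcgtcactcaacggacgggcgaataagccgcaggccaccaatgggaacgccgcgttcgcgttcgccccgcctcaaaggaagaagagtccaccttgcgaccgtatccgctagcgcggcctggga
NSMCE4A: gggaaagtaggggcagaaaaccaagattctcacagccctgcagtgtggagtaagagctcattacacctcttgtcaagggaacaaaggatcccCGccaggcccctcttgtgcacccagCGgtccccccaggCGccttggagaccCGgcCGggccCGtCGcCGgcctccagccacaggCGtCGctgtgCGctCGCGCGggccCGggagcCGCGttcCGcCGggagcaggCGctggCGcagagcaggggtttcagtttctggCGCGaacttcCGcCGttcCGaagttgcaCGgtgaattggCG
The 3 windows hold 33, 28 and 28 CpG dinucleotides, against a median of 14 over the 35116 promoters of the table. The motif CCGGAAG, searched on both strands, is present for SMC6, NSMCE1 and SLF1, and in 10.3% of all promoters. CCAAT is present for NSMCE1 and NSMCE4A and in 34.6% of all promoters, and GGGCGG for SMC6, SMC5 and NSMCE3 and in 45.0% of all promoters. Matches of letters describe these windows and say nothing of what binds there.

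EID3 differed widely between the groups. It had 326 and 297 counts in the knockdown libraries, against 11 and 33 counts in the controls. Both knockdown libraries were high and close to each other, both controls were low, and the groups did not overlap. The level was 20.2 ± 0.260 CPM in the knockdown and 1.37 ± 0.760 CPM in the controls (SD, n = 2 each). The fitted log2 fold change was 3.82 (SE 0.312), or 14.1-fold higher, and it was 4.57 without control replicate 2 and 3.36 without control replicate 1. The size of the rise therefore depends on the low and unequal counts of the controls. By log2 fold change EID3 ranked 1 among the 12412 protein-coding genes that averaged 5 CPM or more, with SLC2A3 next at 3.37. Without that minimum it ranked 10 of 14280. EID3 averaged 10.8 CPM over the 4 libraries and met the minimum through the knockdown alone. It was chosen for its rise in this comparison, so neither rank is a test.

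**Figure D1:**
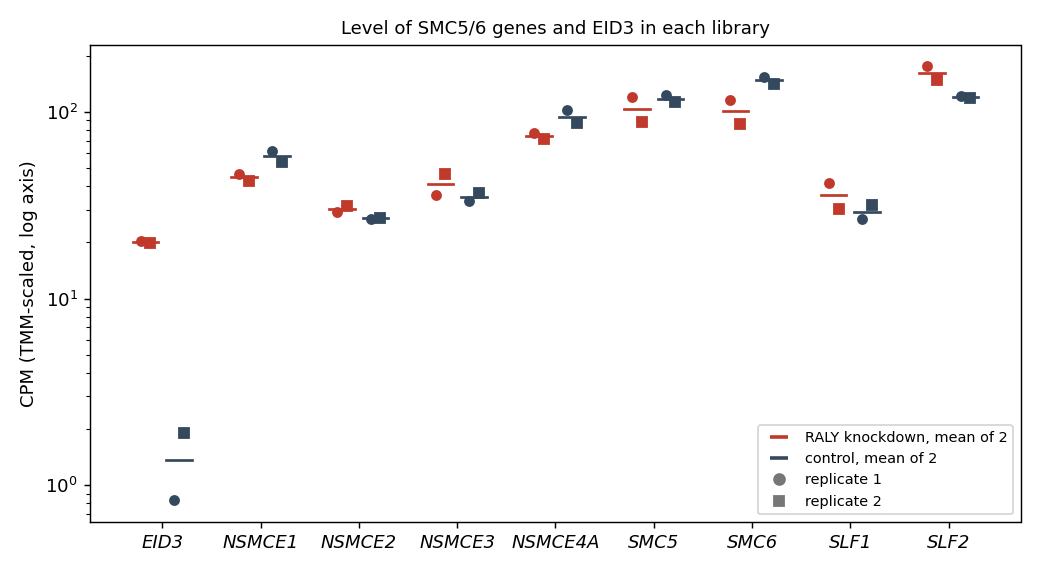
CPM of the 9 genes in each library on a log axis, with RALY knockdown in red left of control in dark blue, circles for replicate 1, squares for replicate 2 and lines for the mean of 2 libraries. EID3 sits near 20 CPM in both knockdown libraries and below 2 CPM in both controls, while each partner lies within a narrow band.

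EID3 (ENSG00000255150, chromosome 12, positions 104303739 to 104305205, plus strand, GRCh38) has 1 exon of 1467 bases and is tagged as a retrogene in GENCODE release 44. It lies in an intron of 18654 bases of TXNRD1, a thioredoxin reductase gene on the same strand, 12634 bases after one TXNRD1 exon and 4553 bases before the next. No exon base of EID3 is shared with another gene, and gene counts cannot separate EID3 mRNA from unspliced TXNRD1 RNA over the same stretch. TXNRD1 had 4210 and 3207 counts in the knockdown and 3703 and 4224 in the controls, with overlapping groups (log2 fold change -0.13, 95% interval -0.43 to 0.17, edgeR adjusted p = 0.521). RPL18AP3, a ribosomal pseudogene elsewhere within TXNRD1 on the same strand, had 334 and 367 counts in the knockdown and 330 and 357 in the controls (log2 fold change -0.00, edgeR adjusted p = 0.993). ENSG00000257732, a noncoding gene on the opposite strand of TXNRD1, had 99 and 47 counts in the knockdown and 64 and 90 in the controls (log2 fold change -0.10, edgeR adjusted p = 0.853). Neither of these 2 other genes within TXNRD1 was called.

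Of the 15 other tested genes that reach into the 500 kb on either side of EID3, 3 rose and none fell by the edgeR quasi-likelihood test with Benjamini-Hochberg adjustment, against 12.5% of all tested genes called higher. CHST11, a chondroitin sulfotransferase gene and the next tested gene after EID3, had 1073 and 1116 counts in the knockdown and 420 and 740 in the controls. Its log2 fold change was 0.92 (SE 0.151, edgeR adjusted p = 0.00115), and without control replicate 1 it was 0.69 and no longer called (edgeR adjusted p = 0.0558). HCFC2, a host cell factor gene, and TDG, a thymine DNA glycosylase gene, rose by 0.78 and 0.50 on the log2 scale (edgeR adjusted p = 0.0148 and 0.00642). The other 12 ran from -0.33 to 0.77 and were not called.

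**Figure D2:**
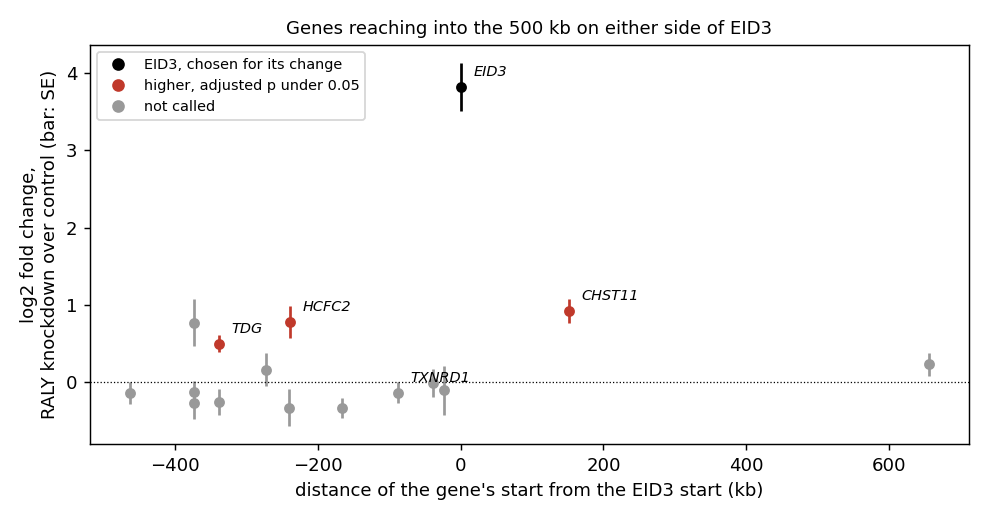
Log2 fold change of RALY knockdown over control, with SE, for genes reaching into the 500 kb on either side of EID3, by the distance of each gene's start from the EID3 start in kb. EID3 in black lies at 3.82, the 3 called genes in red lie at or below 0.92, and TXNRD1, which surrounds EID3, lies at -0.13.

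Copies that could share reads with the members were sought. The EID3 and NSMCE4A transcripts share no identical run longer than 20 bases, and no other place in the genome matched EID3 over at least 75 bases at 95% identity. Among the partners, SMC5 matched elsewhere over 16.2% of its canonical transcript and SLF1 over 2.74%, so their counts are uncertain to that extent, and the other 6 had no such match.

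The kleisin genes are best compared within a library, where scaling cancels. NSMCE4A (ENSG00000107672, chromosome 10, positions 121957091 to 121975217, minus strand) had 1233 and 1070 counts in the knockdown and 1344 and 1505 in the controls. Per base of canonical transcript, EID3 reached 25.1% and 26.3% of NSMCE4A in the knockdown libraries (95% exact binomial intervals 22.1% to 28.3% and 23.1% to 30.0%). It reached 0.776% and 2.08% in control replicates 1 and 2 (95% exact intervals 0.386% to 1.39% and 1.43% to 2.93%). The knockdown libraries agree within counting error, and the controls lie far below them and apart from each other. The mean was 25.7% ± 0.883 in the knockdown and 1.43% ± 0.921 in the controls (SD, n = 2 each), a log2 difference of 4.34. That difference was 5.05 without control replicate 2 and 3.63 without control replicate 1. NSMCE4A thus remained the more abundant of the paralogs per base in all 4 libraries. Its canonical transcript has 1391 bases, while all its deposited exons cover 3543. On that longer length EID3 came to 63.9% and 67.0% of NSMCE4A in the knockdown, and 1.98% and 5.30% in the controls, so the share depends on the length used.

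**Figure D3:**
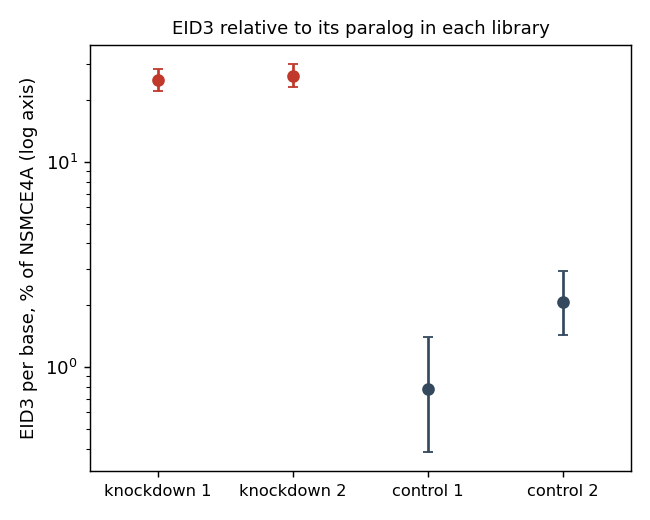
EID3 counts per base of canonical transcript as a percentage of those of NSMCE4A in each library, on a log axis, with 95% exact binomial intervals that cover counting error only. The 2 RALY knockdown libraries lie at 25.1% and 26.3% and the 2 controls at 0.776% and 2.08%.

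The partner genes moved little beside EID3, and in both directions. All 8 passed the filter on low counts. By the edgeR quasi-likelihood test, adjusted over all 19686 genes tested, 1 rose and 1 fell, against 12.5% of all genes called higher and 13.1% called lower. Thus 2 of 8 partners were called where 25.6% of all tested genes were. Groups were apart in 5 of 8 partners (62.5%), beside 63.6% of the genes tested. Their median log2 fold change was -0.01, beside 0.01 over all genes tested, and values ran from -0.55 to 0.42.

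SMC6, an arm of the ring, fell. SMC6 (ENSG00000163029, chromosome 2, positions 17663812 to 17800242, minus strand) had 1853 and 1277 counts in the knockdown and 2036 and 2446 in the controls. In CPM this was 116 and 85.9 in the knockdown, against 154 and 141 in the controls, and both knockdown values lay below both controls. The log2 fold change was -0.55 (SE 0.139, edgeR adjusted p = 0.0127). The call was lost without RALY knockdown replicate 2 (log2 fold change -0.36, edgeR adjusted p = 0.0554), without control replicate 1 (-0.53, adjusted p = 0.134) and without control replicate 2 (-0.63, adjusted p = 0.101).

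SMC5, the other arm, was not called. SMC5 (ENSG00000198887, chromosome 9, positions 70258978 to 70354873, plus strand) had 120 and 88.1 CPM in the knockdown and 123 and 113 CPM in the controls. The groups overlapped, with a log2 fold change of -0.18 (95% interval -0.49 to 0.13, edgeR adjusted p = 0.381). The value rests on 1 library, at -0.44 and called without RALY knockdown replicate 1 (edgeR adjusted p = 0.0062) and 0.019 without RALY knockdown replicate 2 (edgeR adjusted p = 0.944). Within a library, SMC5 stood to SMC6 per base of canonical transcript as 0.913 and 0.904 in the knockdown libraries, against 0.701 and 0.703 in the controls. This ratio was far tighter within groups than either gene's CPM. Its size depends on the length used. Per kilobase of all deposited exons, SMC5 and SMC6 averaged 15.7 and 10.3 CPM per kb in the knockdown. In the controls they averaged 17.8 and 15.1 CPM per kb. NSMCE1 stood to its partner NSMCE3 as 5.99 and 4.29 in the knockdown and 8.55 and 6.79 in the controls, without overlap. NSMCE2 stood to SMC5, on which it docks, as 1.22 and 1.77 in the knockdown and 1.09 and 1.20 in the controls, while SLF1 to SLF2 overlapped, at 0.292 and 0.253 in the knockdown and 0.270 and 0.328 in the controls. These 4 ratios were examined after the counts had been seen and were given no test.

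SMC6 starts beside GEN1, which encodes a resolvase of recombination intermediates and is transcribed the other way, and the SMC6 promoter printed above covers both starts, with 47 bases between them. The longer span of SMC6 in the deposited tables encloses GEN1, and they share 107 exon bases, or 1.09% of SMC6. GEN1 had 129 and 99.2 CPM in the knockdown and 88.6 and 90.5 CPM in the controls. Its log2 fold change of 0.35 was not called (95% interval 0.06 to 0.63, edgeR adjusted p = 0.0694). That value was 0.52 without RALY knockdown replicate 2 and 0.13 without RALY knockdown replicate 1.

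The kleisin NSMCE4A and its RING partner NSMCE1 were both lower on average and were not called. NSMCE4A had 76.9 and 71.9 CPM in the knockdown and 102 and 87.1 CPM in the controls (log2 fold change -0.34, 95% interval -0.60 to -0.08, edgeR adjusted p = 0.0523). NSMCE1 (ENSG00000169189, chromosome 16, positions 27224994 to 27268772, minus strand) had 46.5 and 42.9 CPM in the knockdown and 61.6 and 53.9 CPM in the controls (log2 fold change -0.37, 95% interval -0.65 to -0.09, edgeR adjusted p = 0.0551). Groups did not overlap for either gene, and the values sit next to the threshold. Both passed with plain library totals (edgeR adjusted p = 0.0345 for NSMCE4A and 0.0448 for NSMCE1). Both also passed without the filter on low counts (0.0266 and 0.0312), without RALY knockdown replicate 1 (0.0117 and 0.0163), and with counts corrected for levelling off (log2 fold change -0.48 for each, edgeR adjusted p = 0.0158 and 0.0212). With DESeq2 size factors NSMCE4A passed too (edgeR adjusted p = 0.049). Neither passed with the DESeq2 Wald test (adjusted p = 0.0656 for NSMCE4A and 0.0787 for NSMCE1). In all, 6 of 11 alternatives called NSMCE4A and 5 called NSMCE1. The log2 fold changes were -0.30 and -0.31 without RALY knockdown replicate 2. They were -0.26 and -0.31 without control replicate 1, and -0.47 and -0.48 without control replicate 2. NSMCE1-DT, the noncoding gene that shares the NSMCE1 start, had 22 and 29 counts in the knockdown and 11 and 16 in the controls (log2 fold change 0.90, edgeR adjusted p = 0.126).

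NSMCE3 and NSMCE2 were not called. NSMCE3 (ENSG00000185115, chromosome 15, positions 29264992 to 29269829, minus strand) had 36.1 and 46.4 CPM in the knockdown and 33.4 and 36.8 CPM in the controls. The groups overlapped (log2 fold change 0.23, 95% interval -0.11 to 0.56, edgeR adjusted p = 0.305). Like EID3 it has 1 exon and lies in an intron of a gene on the same strand, ENTREP2, which had 19 and 22 counts in the knockdown and 20 and 33 in the controls (log2 fold change -0.37, edgeR adjusted p = 0.511). NSMCE2 (ENSG00000156831, chromosome 8, positions 125091679 to 125367120, plus strand) had 29.1 and 31.2 CPM in the knockdown and 26.8 and 27.0 CPM in the controls (log2 fold change 0.16, 95% interval -0.16 to 0.49, edgeR adjusted p = 0.461). Its neighbour WASHC5, a subunit of an actin-nucleating complex that starts on the opposite strand and shares 141 exon bases with it, rose by 0.56 on the log2 scale (SE 0.109, edgeR adjusted p = 0.00315), a call lost without control replicate 1 (0.48, adjusted p = 0.0785) or 2 (0.59, adjusted p = 0.0528).

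SLF2, which links SMC5/6 to damaged DNA, rose. SLF2 (ENSG00000119906, chromosome 10, positions 100912963 to 100965134, plus strand) had 2813 and 2197 counts in the knockdown and 1610 and 2063 in the controls. This was 175 and 148 CPM in the knockdown, against 122 and 119 CPM in the controls, so that both knockdown values lay above closely matched controls. The log2 fold change was 0.42 (SE 0.120, edgeR adjusted p = 0.0219). The call was lost without RALY knockdown replicate 1 (log2 fold change 0.27, edgeR adjusted p = 0.112), without control replicate 1 (0.40, adjusted p = 0.157) and without control replicate 2 (0.39, adjusted p = 0.168). SLF1 (ENSG00000133302, chromosome 5, positions 94618669 to 94739436, plus strand), the factor that joins SLF2 to the ubiquitin ligase RAD18, had 41.5 and 30.3 CPM in the knockdown and 26.7 and 31.7 CPM in the controls. Its groups overlapped (log2 fold change 0.30, 95% interval -0.08 to 0.68, edgeR adjusted p = 0.239), and it was called only without RALY knockdown replicate 2, at 0.50 (edgeR adjusted p = 0.0144). MCTP1, a calcium-binding membrane protein gene that overlaps the end of SLF1 on the opposite strand, had 55 and 43 counts in the knockdown and 23 and 47 in the controls (log2 fold change 0.49, edgeR adjusted p = 0.317).

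**Figure D4:**
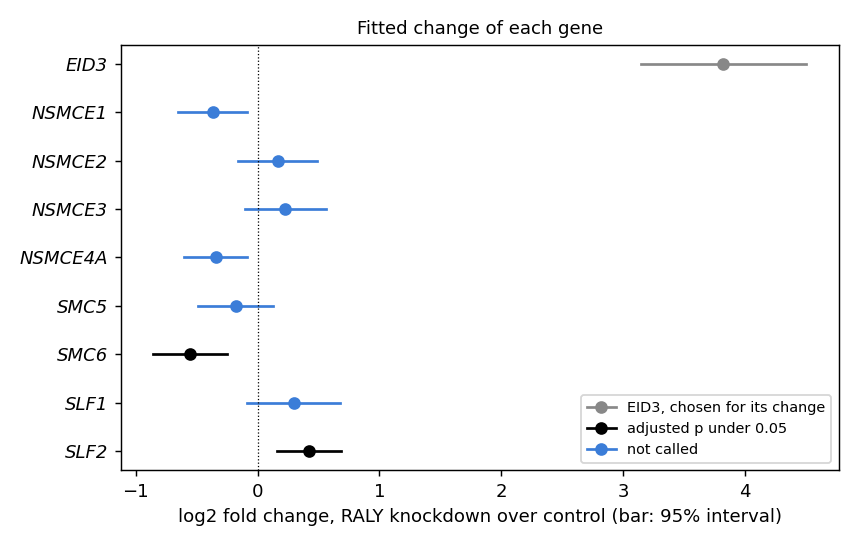
Fitted log2 fold change of RALY knockdown over control for the 9 genes, with 95% intervals from the edgeR fit. EID3 in grey lies at 3.82, and the partners lie between -0.55 and 0.42, with SMC6 and SLF2 in black past an adjusted p of 0.05 and the 6 not called in blue.

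Per kilobase of canonical transcript, the order of the genes in the knockdown libraries was NSMCE4A (53.5 ± 2.53 CPM per kb), NSMCE1 (42.9 ± 2.47), NSMCE2 (25.4 ± 1.27), SLF2 (23.4 ± 2.85), SMC6 (19.2 ± 4.01), SMC5 (17.5 ± 3.77), EID3 (13.7 ± 0.177), NSMCE3 (8.53 ± 1.51) and SLF1 (6.43 ± 1.43; SD, n = 2 throughout). From NSMCE2 to SMC5, each gene overlapped the next in that order, while the others did not. In the controls the order was NSMCE4A (67.9 ± 7.53 CPM per kb), NSMCE1 (55.4 ± 5.23), SMC6 (28.2 ± 1.73), NSMCE2 (22.6 ± 0.0753), SMC5 (19.8 ± 1.19), SLF2 (17.5 ± 0.276), NSMCE3 (7.27 ± 0.501), SLF1 (5.23 ± 0.636) and EID3 (0.935 ± 0.518), and no gene overlapped the next. On this length EID3 was thus the lowest of the 9 in the controls and lay above NSMCE3 and SLF1 in the knockdown. The order depends on the length used. Per kilobase of all deposited exons, EID3 (13.7 CPM per kb) also lay above NSMCE1 (11.9), SMC6 (10.3) and NSMCE2 (10.1) in the knockdown. EID3 was still the lowest in the controls. High counts on a short transcript could level off if duplicate reads were removed before counting, and whether they were is not stated. The mean count reached 46.3% of 2 counts per transcript base for NSMCE4A and 37.5% for NSMCE1, between 14.3% and 18.4% for SMC5, SLF2, SMC6 and NSMCE2, and 4.51% to 6.07% for EID3, NSMCE3 and SLF1.

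Among 14279 other tested protein-coding genes, the 5 whose centred log2 CPM over the 4 libraries lay closest to that of EID3 were SLC2A14, ANKRD1, SMAD7, SLC2A3 and ALDH1A2, with root mean square differences of 0.15, 0.34, 0.40, 0.43 and 0.44. SLC2A14, a glucose transporter, had 35 and 34 counts in the knockdown and 0 and 3 in the controls. It is a paralog of SLC2A3, and reads shared between them were not measured here. ANKRD1, a muscle ankyrin repeat gene and YAP target, had 36 and 32 counts in the knockdown and 0 and 5 in the controls. SMAD7, an inhibitor of TGF-beta signalling, had 1024 and 1011 counts in the knockdown and 78 and 165 in the controls. ALDH1A2, a retinoic acid synthesis gene, had 39 and 61 counts in the knockdown and 2 and 5 in the controls. SLC2A3 had 3117 and 3486 counts in the knockdown and 262 and 371 in the controls. SLC2A14, ANKRD1 and ALDH1A2 lay below the level of the filter on low counts, 0.64 CPM, in both controls. They entered the search through the knockdown alone, so the filter fixed their direction.

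Genes of related machinery were read from lists against the same background, with medians beside 0.01 over all genes tested. Of 14 cohesin genes, 2 rose and 1 fell (median log2 fold change 0.09). NIPBL, the cohesin loader, rose by 0.47 and the cohesin subunit gene STAG1 by 0.36, while HDAC8, the deacetylase that recycles cohesin, fell by 0.36 (edgeR adjusted p = 0.0158, 0.0422 and 0.0476). Of 8 condensin genes, SMC2, an arm of the condensin ring, rose by 0.42 (edgeR adjusted p = 0.0181) and none fell (median 0.18). The shares called, 21.4% and 12.5%, were below the 25.6% of all genes.

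The SUMO pathway, to which NSMCE2 belongs as a ligase, had 6 of 22 genes higher and 3 lower (median 0.05), or 40.9% called against 25.6% of all genes. The largest rise among them was that of ZNF451, a SUMO ligase, at 0.75 on the log2 scale, with 3659 and 2994 counts in the knockdown and 1716 and 2155 in the controls. The SUMO proteases SENP1 and SENP5 rose by 0.56 and 0.50 and the SUMO-targeted ubiquitin ligase RNF111 rose by 0.54 (edgeR adjusted p between 0.000917 and 0.00798 for these 4 genes). RANBP2, RNF4, SUMO3, PIAS1 and PIAS3 were also called, the last 3 as lower.

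Of the EID family and its targets, both acetyltransferase genes rose and no other EID gene was called, 40.0% of the 5 against 25.6% of all genes. CREBBP, which encodes CBP, had 281 and 224 CPM in the knockdown and 149 and 156 CPM in the controls, a rise of 0.73 on the log2 scale (edgeR adjusted p = 0.00231). EP300 rose by 0.57 (edgeR adjusted p = 0.00571). EID1, EID2 and EID2B had log2 fold changes of -0.24, -0.26 and -0.38 (edgeR adjusted p = 0.161, 0.304 and 0.353), on the other side of 0 from EID3. Of 17 MAGE genes, the family of NSMCE3, 7 were tested and MAGEF1, a MAGE protein that also binds NSMCE1, fell by 0.36 (edgeR adjusted p = 0.0436; 14.3% of the 7 called, median -0.09).

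Among 17 genes of RAD18, ubiquitin signalling and recombination at damage sites, 3 rose and 2 fell (29.4% called, median 0.00). RMI2, a subunit of the BLM helicase complex, fell by 1.34 on the log2 scale, with 205 and 186 counts in the knockdown and 400 and 582 in the controls (edgeR adjusted p = 0.000285). The helicase gene BLM rose by 0.34, the recombination gene BRCA2 by 0.49, and the fork remodeller gene HLTF by 0.41, while the ubiquitin ligase gene RNF8 fell by 0.41 (edgeR adjusted p between 0.0179 and 0.0395). Of 12 genes of the NRF2 response, of which TXNRD1 is one, 1 rose and 2 fell (25.0% called, median -0.08). The cystine transporter gene SLC7A11 fell by 1.15, KEAP1, the inhibitor of NRF2, fell by 0.54 and OSGIN1 rose by 0.62 (edgeR adjusted p = 0.00086, 0.0281 and 0.00768).

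Genes of the germ line were read from further lists, and many of them did not pass the filter on low counts. Of 18 genes of meiotic cohesin, the synaptonemal complex and meiotic recombination, 9 were tested, none rose and 2 fell, with 4 of the 18 at 0 in all libraries. MEI1 had 16 and 7 counts in the knockdown and 28 and 45 in the controls, and SYCE3 had 4 and 4 in the knockdown and 15 and 15 in the controls (edgeR log2 fold changes of -1.67 and -1.90 with adjusted p = 0.014 and 0.0229). The share called of the 9, 22.2%, lay near the 25.6% of all genes, and the median was -0.50. SYCE3 reached the level of the filter in the controls alone, so the filter fixed its direction. MEI1 reached that level in both controls but only 1 knockdown library, and SYCP3 in both knockdown libraries but only 1 control. The count called and the median therefore rest in part on the filter. Of 18 other germline genes, 6 had no count in any library and 1, PIWIL2, a small RNA pathway gene, passed the filter (log2 fold change 0.45, edgeR adjusted p = 0.211). DDX4, a germ cell helicase, had 5 and 5 counts in the knockdown and 7 and 6 in the controls, and DAZL, PRM1 and PRM2 had none. The summed level of these 18 genes was 8.98 to 10.6 CPM in the knockdown and 7.35 to 8.04 CPM in the controls.

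**Figure D5:**
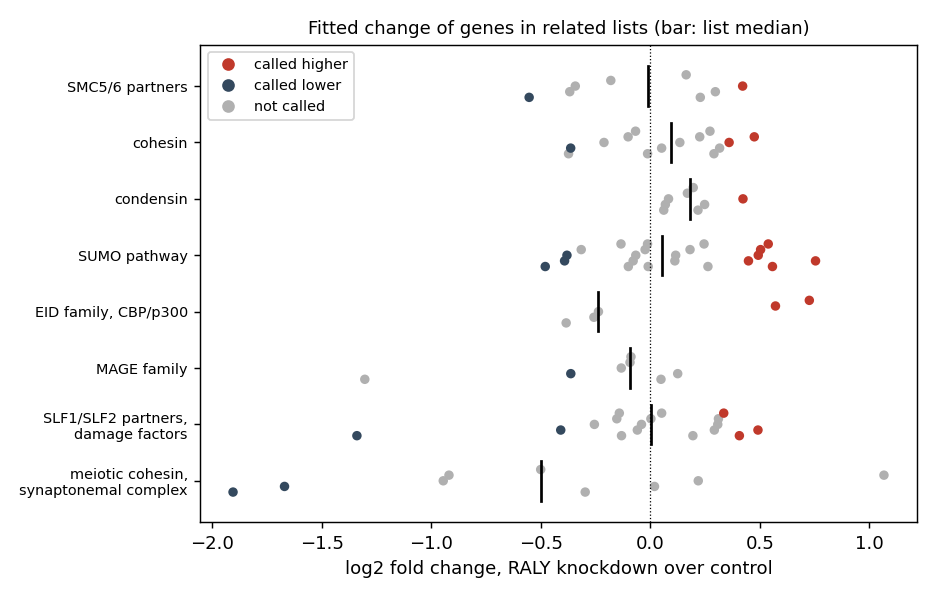
Log2 fold change of RALY knockdown over control for tested genes of the SMC5/6 partners and 7 related lists, with called genes in red (higher) and dark blue (lower), others in grey, and the median of each list as a bar. Medians lie between -0.50 for the meiotic genes and 0.18 for condensin. EID3, chosen for its rise, lies at 3.82 and is not drawn.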

How the data were processed

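RNA from 2 RALY knockdown and 2 control libraries of HCT116 cells was analysed as deposited gene counts. The counts are whole numbers of reads per Ensembl gene, 1 table per library, in the layout of featureCounts per the file headers. The submitters' processing notes name HISAT2 2.0.4, SAMtools, featureCounts, Subread and GRCh38, with no role, setting or order. The sources used here do not state strand use or duplicate removal. Names, biotypes and canonical transcripts came from GENCODE release 44, which held 58472 of the 58884 genes.

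Counts were tested with edgeR 4.0.16 (R 4.3.3): filterByExpr, TMM factors, a robust quasi-likelihood fit with a term for the group, and Benjamini-Hochberg adjustment over all 19686 genes, called at 0.05. The fit was tested on simulated data. CPM uses TMM-scaled totals. Alternatives included the DESeq2 1.42.0 Wald test and counts corrected for levelling off at 2 per transcript base. Copies were sought with BLAST+ 2.17.0. Named genes were the members, RALY, genes overlapping a member or next to EID3, the called list members with the smallest p (up to 4 a list, or up to 2 of the smallest p where none was called), and the 5 genes closest in pattern to EID3. The others named, among them RPL18AP3, HCFC2, TDG and further list members, were chosen after their values were seen. Members and lists were chosen with earlier results of these data known. Replicates were distinct libraries: their counts differed beyond sampling noise, with a chi-square statistic of 9.32 per degree of freedom in the knockdown and 5.10 in the controls.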

Additional observations from a re-analysis of the deposited data

How the results depend on the processing

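The log2 fold change of EID3 ran from 3.36 to 4.57 under 11 alternatives. That of its ratio to NSMCE4A ran from 3.63 to 5.05 under 7. Of these, the deposited exon length could not change it, because lengths cancel between the groups. EID3 was chosen for its rise in these same libraries, so the refits describe its size and do not test it. Over all genes, 2470 were called higher and 2578 lower. Leaving out 1 library gave 340 to 2908 higher and 508 to 3351 lower, with the lowest counts when a control was left out. Of the 8 partners, 1 was called higher and 0 to 2 without 1 library. The 1 called lower became 2 with DESeq2 size factors, 3 with plain library totals, 3 with no filter on low counts, 3 with counts corrected for levelling off, and 0 to 4 without 1 library; the cause was not tested. SMC5 ran from -0.44 to 0.019 and ENSG00000257732 from -0.69 to 0.29 on the log2 scale without 1 library, both changing sign without RALY knockdown replicate 2. The titles number the libraries 1 and 2 in each group but nothing shows that they pair, and the differences between replicates correlated at 0.22 across genes. With the replicate block, 3 partners were called lower, 3518 genes higher and 3536 lower, and GEN1 was called higher (edgeR adjusted p = 0.0203). Medians of all genes moved by less than 0.1 under every scaling. Depth limits EID3 most in the controls, at 11 and 33 counts.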

Other observations

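EID3 and NSMCE3 are both genes of 1 exon inside an intron of a same-strand gene, so protein-coding genes of that kind were counted. The list was made after the values of EID3 were seen and was given no test. EID3 was left out, and NSMCE3, not called, was kept in. Of 25 such genes tested with a tested host, NSMCE3 among them, 8 were higher and 1 lower by edgeR (36.0% called, against 25.6% of all genes). Their median log2 fold change was 0.68, beside 0.01 over all genes. The largest was SUMO4, a SUMO retrogene within TAB2, with 11 and 16 counts in the knockdown and 2 and 2 in the controls (log2 fold change 2.66, edgeR adjusted p = 0.0114), while TAB2 was at 0.26 and not called. RPA4, a paralog of the replication protein RPA2 within DIAPH2, had 26 and 52 counts in the knockdown and 7 and 13 in the controls (log2 fold change 1.95, edgeR adjusted p = 0.0106). UBQLNL had 77 and 112 counts in the knockdown and 12 and 34 in the controls (2.05, edgeR adjusted p = 0.00247). GALNT4, a glycosyltransferase gene, rose by 1.04 while its host POC1B fell by 0.92 on the log2 scale. SUMO4, C10orf62 and RAMACL, 3 of the 25, reached the level of the filter on low counts in the knockdown alone. The filter thus fixed their direction. RPA4 and TAS2R10, both called higher, and ANKRD63, GPR52 and RNF133 reached it in both knockdown libraries but only 1 control. TAS2R20 reached it in both controls but only 1 knockdown library. The count and the median therefore rest in part on the filter. CHMP1B, an ESCRT subunit gene within GNAL, was the 1 that fell, by 0.47 (edgeR adjusted p = 0.0169). Gene counts cannot separate these genes from unspliced host RNA over the same stretch, and the part of host RNA was not tested.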
